A study of Mus musculus with 2 samples.

Results

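Semaphorins, plexins and neuropilins are the ligands, receptors and co-receptors of a guidance system, and 31 of their genes were followed in RNA of the mouse embryonic brain. The genes were chosen by symbol, matched through Ensembl identifiers in the deposited gene and transcript tables, and make up 31 of 43346 annotated genes in those tables. They comprise 20 semaphorins, 9 plexins and 2 neuropilins. Whole brain of C57BL/6J embryos at day 14.5 was sequenced as polyadenylated RNA in 2 libraries, biological replicates 1 and 2,, taken from mixed-sex litters. They form a single group, for which the labels give no treatment or mutation. No condition is compared, and the error given is the spread between the libraries (SD, n = 2). The labels do not say which embryos entered which library, so this spread may be technical.

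Semaphorins carry a sema domain and act mainly by binding plexins, large receptors whose intracellular part inactivates small GTPases of the Ras and Rap families and signals to the cytoskeleton. Class 3 semaphorins are secreted, and most of them need a neuropilin, a receptor with a short intracellular end, to reach an A plexin. Classes 4, 5 and 6 span the membrane and bind plexins directly, and class 7 is attached by a lipid anchor. In the embryonic brain the family is known for repelling and attracting growing axons, and for steering migrating neurons and blood vessels.

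Many of the members were made in more than a single form, and the optional stretches below are shown because the deposited junction reads decide between their forms. Each sequence is part of the spliced mRNA in GENCODE vM21 on mm10. Capitals mark the bases that some mRNAs keep and others leave out, and lower case marks their neighbours in the transcript named. The stretches come from neuropilin mRNAs, from the secreted ligand Sema3f and from the membrane-bound ligands Sema6c and Sema6d.
Nrp1-201 end of exon 11, chr8:128480969-128480989, plus strand: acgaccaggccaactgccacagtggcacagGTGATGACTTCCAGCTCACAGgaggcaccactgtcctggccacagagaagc
Nrp2-201 end of exon 15, chr1:62786302-62786316, plus strand: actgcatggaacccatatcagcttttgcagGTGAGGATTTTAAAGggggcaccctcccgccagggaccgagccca
Nrp2-202 exon 16, chr1:62812534-62812584, plus strand: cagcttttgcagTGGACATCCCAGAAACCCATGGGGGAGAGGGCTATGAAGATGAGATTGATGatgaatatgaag
Sema3f-204 exon 5, chr9:107691356-107691448, minus strand: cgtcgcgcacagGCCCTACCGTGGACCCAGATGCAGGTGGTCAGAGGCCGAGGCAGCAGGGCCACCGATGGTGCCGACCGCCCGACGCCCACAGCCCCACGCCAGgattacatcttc
Sema6c-202 exon 20, chr3:95171791-95171886, plus strand: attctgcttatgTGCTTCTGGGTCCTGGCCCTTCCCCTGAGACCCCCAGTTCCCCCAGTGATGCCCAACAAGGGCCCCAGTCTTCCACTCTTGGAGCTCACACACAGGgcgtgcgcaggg
Sema6d-204 exon 17, chr2:124660705-124660761, plus strand: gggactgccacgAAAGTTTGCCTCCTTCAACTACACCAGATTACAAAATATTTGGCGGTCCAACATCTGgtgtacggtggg
Sema6d-203 exon 17, chr2:124662204-124662371, plus strand: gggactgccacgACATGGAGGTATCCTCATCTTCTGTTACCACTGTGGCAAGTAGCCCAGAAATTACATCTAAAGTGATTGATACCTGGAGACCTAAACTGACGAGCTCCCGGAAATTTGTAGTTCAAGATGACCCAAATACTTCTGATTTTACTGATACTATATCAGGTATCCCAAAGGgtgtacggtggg
All of these stretches lie in coding sequence, and each is a multiple of 3 bases long. Their use is given with the genes they belong to.

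Nearly the whole family was present. A level of 1 TPM (a transcript level corrected for length and scaled to the same total in each library) or more in both libraries was reached by 29 of 31 members, against 62.2% of 21474 protein-coding genes. The members below that level were Sema3d and Plxnb3. The median member stood at 24.3 TPM (replicate 1) and 28.6 TPM (replicate 2), and the median of the protein-coding genes that reached 1 TPM in both libraries was 20.1 TPM (replicate 1) and 20.6 TPM (replicate 2). In both libraries 18 of 31 members lay above that median. Summed TPM of the plexins and neuropilins was 1.04 times that of the semaphorins in replicate 1 and 0.982 times in replicate 2. The libraries held 103493289 and 97539730 expected counts on annotated genes in replicates 1 and 2, and members had between 158 counts (Plxnb3) and 60910 counts (Plxna1) in a library.

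**Figure D1:**
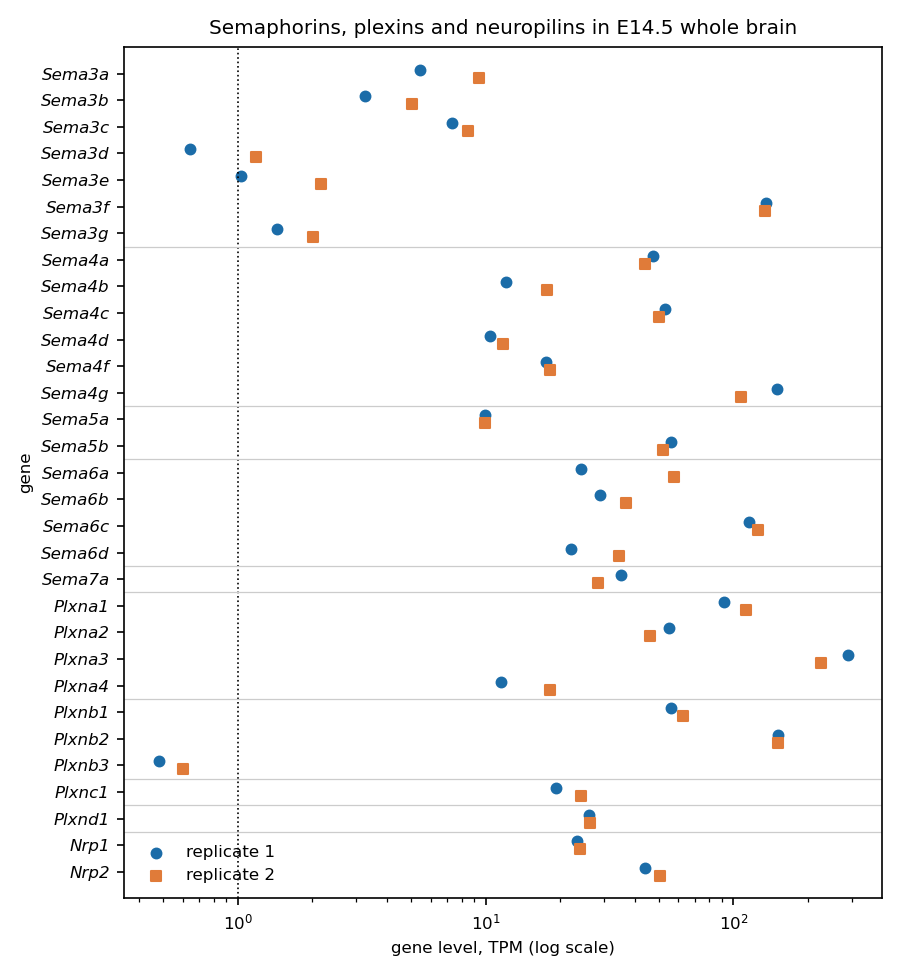
Gene level in TPM (log scale) of the 31 members in replicate 1 (circles) and replicate 2 (squares), with grey lines between the classes and a dotted line at 1 TPM. Levels span from 0.48 TPM for Plxnb3 to 288.93 TPM for Plxna3, and the points of a gene mostly lie close together beside the distance between genes.

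Among the secreted class 3 ligands Sema3f stood far above the others. Sema3f (chr9:107681500-107710475, minus strand), a repellent that acts mainly through Nrp2 and Plxna3, had 134.98 TPM (replicate 1) and 133.95 TPM (replicate 2). It held 87.6% of the class 3 TPM in replicate 1 and 82.5% in replicate 2. Sema3a, the classical collapsing factor for sensory and cortical axons that signals through Nrp1, had 5.42 and 9.40 TPM in replicates 1 and 2. Sema3c, a neuropilin ligand needed for the cardiac outflow tract, had 7.30 and 8.51 TPM. Sema3a and Sema3c overlapped in level across the libraries, so their order was not settled.

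The remaining class 3 genes were low. Sema3b had 3.27 TPM (replicate 1) and 5.07 TPM (replicate 2), and Sema3g had 1.44 and 2.01 TPM. Sema3e, which binds Plxnd1 without a neuropilin, had 1.03 TPM (replicate 1) and 2.16 TPM (replicate 2). Sema3d lay around the threshold, with 0.64 TPM (replicate 1) and 1.18 TPM (replicate 2). All class 3 genes other than Sema3f were higher in replicate 2. All the genes of this paragraph rested on few reads. Expected counts in replicates 1 and 2 were 276 and 456 for Sema3d and 454 and 859 for Sema3e. They were 426 and 534 for Sema3g and 507 and 625 for Sema3b.

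The class 4 ligands, which span the membrane, were led by Sema4g (chr19:44989101-45003397, plus strand), a ligand of Plxnb2 in the developing cerebellum. It had 149.57 TPM (replicate 1) and 107.46 TPM (replicate 2), a mean of 129 ± 29.8 TPM. Sema4c, also a ligand of Plxnb2, had 53.20 and 50.29 TPM in replicates 1 and 2. Sema4a, first described on immune cells and needed in the retina, had 47.30 and 43.80 TPM. These values place Sema4g above every other class 4 gene in both libraries.

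Lower in the class, Sema4f had 17.60 TPM (replicate 1) and 18.12 TPM (replicate 2), and Sema4b had 12.10 and 17.67 TPM. Sema4d, the immune semaphorin CD100 and a ligand of Plxnb1, had 10.41 TPM (replicate 1) and 11.72 TPM (replicate 2). Sema4d was the lowest of the class in both libraries.

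In class 5, whose members carry thrombospondin repeats outside the cell, Sema5b was the higher gene. It had 56.19 TPM (replicate 1) and 52.20 TPM (replicate 2), and Sema5a had 9.96 TPM in both. Sema7a, the lipid-anchored ligand of Plxnc1 and of integrins, had 35.20 TPM (replicate 1) and 28.55 TPM (replicate 2).

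Class 6 held the family's largest difference between the libraries. Sema6a (chr18:47235598-47368870, minus strand), a ligand of Plxna2 and Plxna4 that also acts as a receptor, had 24.28 TPM (replicate 1) and 57.55 TPM (replicate 2). Sema6c, the highest of the class, had 115.16 and 125.63 TPM in replicates 1 and 2. Sema6b, a Plxna4 ligand of hippocampal mossy fibres, had 28.92 and 36.74 TPM, and Sema6d, a Plxna1 ligand at the optic chiasm, had 22.06 and 34.58 TPM. All class 6 genes were higher in replicate 2, and the summed class level was 190.4 TPM (replicate 1) and 254.5 TPM (replicate 2).

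Plxna3 (chrX:74329066-74344689, plus strand), the receptor that completes the Sema3f complex with Nrp2, was the highest member by TPM. It had 288.93 TPM (replicate 1) and 225.45 TPM (replicate 2). Plxna1 had 91.79 and 112.87 TPM in replicates 1 and 2, and Plxna2, a class 6 receptor in the cerebellum and hippocampus, had 55.07 and 45.87 TPM. Plxna4, a receptor for Sema3a and for class 6 ligands, was the lowest A plexin, with 11.49 TPM (replicate 1) and 18.16 TPM (replicate 2). The values of the 4 A plexins did not overlap between genes.

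Of the B plexins, receptors of class 4 ligands, Plxnb2 (chr15:89155549-89180788, minus strand) led. Plxnb2, which is needed for neural tube closure and for the cerebellum, had 151.27 TPM (replicate 1) and 152.01 TPM (replicate 2). Plxnb1 had 55.99 and 62.61 TPM in replicates 1 and 2. Plxnb3, known from oligodendrocytes of the maturing brain, had 0.48 and 0.60 TPM, the lowest value of the family in each library. The junctions of its longest transcript also had few reads, with a median of 8 reads per junction in both libraries together.

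Plxnd1, the Sema3e receptor of endothelium and of some neurons, had 26.25 TPM (replicate 1) and 26.48 TPM (replicate 2). Plxnc1 had 19.25 and 24.32 TPM. Nrp1 (chr8:128358604-128503363, plus strand), the co-receptor of Sema3a and of VEGF, had 23.41 TPM (replicate 1) and 24.14 TPM (replicate 2). Nrp2 (chr1:62703285-62818695, plus strand), the co-receptor of Sema3f, had 44.18 and 50.57 TPM. Nrp2 was thus above Nrp1 in both libraries, with a log2 ratio of Nrp1 over Nrp2 of -0.99 ± 0.11.

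The order of the 31 levels was only partly fixed by the spread. Of 30 neighbouring pairs in the order of mean TPM, 11 had library values that did not overlap. The top was separated, with Plxna3 above Plxnb2 and Plxnb2 above Sema3f, and Sema3f, Sema4g and Sema6c then overlapped in turn. From Plxnb1 down to Plxnd1 each gene overlapped the next. Plxnb3 at the foot lay below Sema3d in both libraries.

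Bulk RNA does not tell fewer cells of a type from less RNA per cell. Markers of the labelled tissue were present: 8 of 8 genes of young neurons and 7 of 7 of radial glia reached 1 TPM in both libraries. Markers of other cells reached it too, with 7 of 7 endothelial genes, 6 of 6 of meninges and fibroblasts and 6 of 6 of microglia. Lists that did not reach it in full were hindbrain segments (8 of 10), erythroid cells (5 of 6) and choroid plexus (3 of 4). Of all protein-coding genes 62.2% reached it. No marker on the lists was at 0 in both libraries. The share of member RNA from each cell type was not tested.

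Most members differed little between the libraries. On the log2(TPM + 1) scale, replicate 1 over replicate 2, the median of the 29 members at a mean of 1 TPM or more was -0.16, and that of the 15240 genes at that level was -0.01. Of the 29 members 8 were higher in replicate 1 and 20 in replicate 2, and Sema5a was equal. Over all genes at that level 48.8% were higher in replicate 1 and 51.0% in replicate 2, and the lean of the members to replicate 2 was not tested. The median size of the difference was 0.26 in the members and 0.27 in all genes. Of the members 0 were 2-fold or more higher in replicate 1, where 1.14% of all genes were, and 1 was 2-fold or more higher in replicate 2, where 2.39% were. By this call the members lay near the background. No test was run, since with 1 library on each side nothing is left to estimate the error.

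The member beyond 2-fold was Sema6a, with a log2 ratio of -1.21. Its expected counts, 7765 in replicate 1 and 16946 in replicate 2, gave a count log2 ratio of -1.21 after division by the library totals, with an exact 95% counting interval from -1.25 to -1.17. That interval covers counting error only, and it excluded 0 in 28 of 31 members. The scale, counts without a pseudocount against TPM + 1, mattered most for low genes. By counts Sema3e was at -1.01, past 2-fold, with an interval from -1.17 to -0.84, Sema3d at -0.81 and Plxnb3 at -0.48, against -0.64, -0.41 and -0.11 by TPM. The mm9 gene values of Sema6a were 7.87 and 4.88 RPKM, which are less than 2-fold apart and are not tied to a replicate. Sema3a at -0.70, Sema3e at -0.64, Sema6d at -0.63 and Plxna4 at -0.62 came next in replicate 2, and Sema4g at 0.47 and Plxna3 at 0.36 in replicate 1. Sema3e also passed 2-fold by TPM when the pseudocount was 0.1 instead of 1.

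Markers of regions and of cell types differed between the libraries. The summed level of 9 forebrain patterning genes was 827 TPM (replicate 1) and 365 TPM (replicate 2), and all 9 were higher in replicate 1. The sum of 10 hindbrain segment genes was 32.0 TPM (replicate 1) and 196 TPM (replicate 2), and all 10 were higher in replicate 2. Genes of the midbrain and cerebellum summed to 62.9 TPM (replicate 1) and 116 TPM (replicate 2). Meningeal and fibroblast genes summed to 269 TPM (replicate 1) and 527 TPM (replicate 2). Neural crest and sensory ganglion genes summed to 94.6 TPM (replicate 1) and 128 TPM (replicate 2). Intermediate progenitor genes summed to 220 TPM (replicate 1) and 108 TPM (replicate 2), with 4 of 4 higher in replicate 1, and genes of cycling cells to 593 TPM (replicate 1) and 319 TPM (replicate 2). The part of these markers in the difference of Sema6a and of the other members was not tested.

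**Figure D2:**
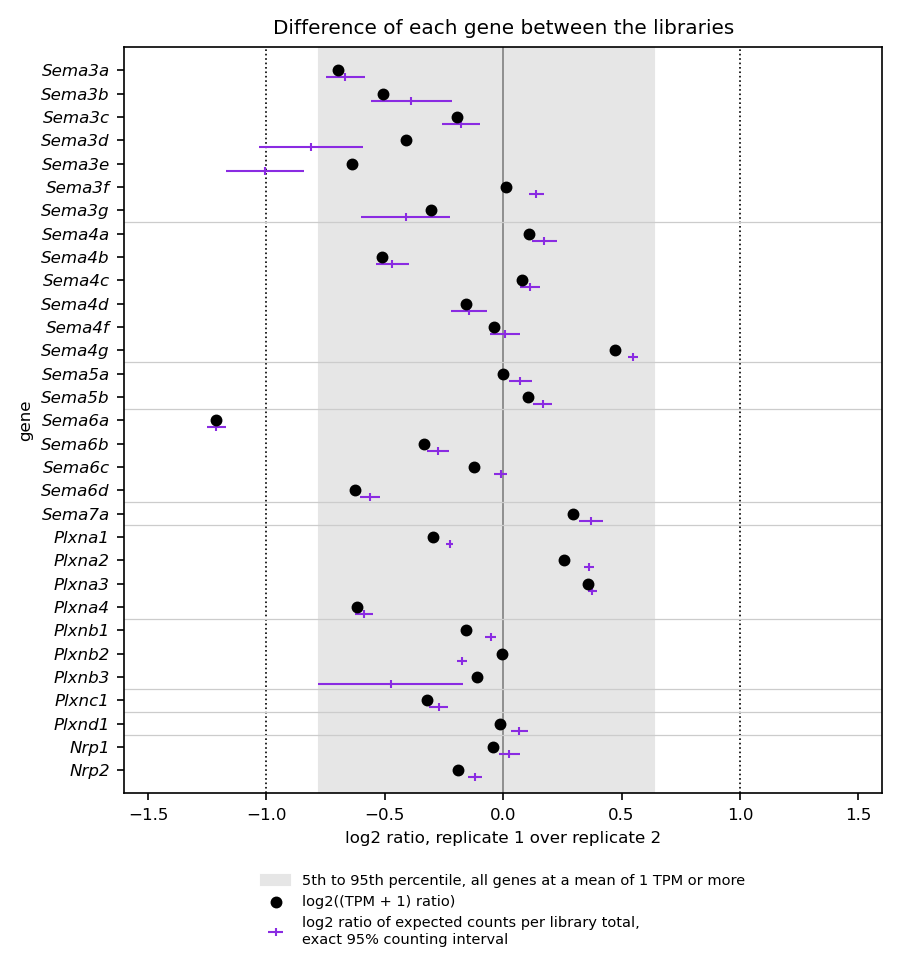
Log2 ratio of replicate 1 over replicate 2 for each member from TPM + 1 (black points) and from expected counts per library total with exact 95% counting intervals (bars), beside the range from the 5th to the 95th percentile of all genes whose mean reached 1 TPM (grey, from -0.78 to 0.64). Sema6a at -1.21 lies beyond the dotted line at 2-fold, and every other black point lies inside the grey range.

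Gene TPM added up transcripts of very different length, and for several members much of it sat outside protein-coding transcripts. In 8 of 29 members at a mean of 1 TPM or more, protein-coding transcripts held under 75% of the gene's TPM, and 21.8% of 13642 protein-coding genes at that level were in that state. The 8 were Sema3b, Sema3f, Sema4a, Sema4g, Sema5b, Sema6c, Plxna3 and Plxnb2, so they include the 5 members highest by gene TPM. The coding transcript of Plxna3, of 6943 nt, held 33.2% of its TPM in replicate 1 and 36.9% in replicate 2. Retained-intron transcripts of Plxna3 held 65.3% in replicate 1 and 62.0% in replicate 2. Plxna3-203, the foremost of these, is 984 nt long and had 93.68 TPM (replicate 1) and 65.24 TPM (replicate 2).

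Plxnb2 was divided in a like way. Plxnb2-202, its full coding transcript, had 70.33 TPM (replicate 1) and 86.73 TPM (replicate 2). Plxnb2-205, a processed transcript of 841 nt with no annotated protein, had 53.16 and 47.67 TPM in replicates 1 and 2. For Sema3f, coding transcripts held 63.1% in replicate 1 and 60.8% in replicate 2. Among members at a mean of 1 TPM or more with several transcripts, Plxna1, Plxnd1, Nrp2, Sema3a and Sema6b had at least 99% in coding ones in both libraries. Plxna4, Nrp1, Sema3g, Sema5a and Sema7a have only 1 transcript, a coding one, so their share is set by the annotation.

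With coding transcripts alone the order at the top changed. By the mean Plxna1 came first with 91.80 TPM (replicate 1) and 112.86 TPM (replicate 2), and Plxna3 followed with 95.81 and 83.18 TPM. Plxnb2 had 75.17 and 91.68 TPM, and Sema3f had 85.17 and 81.46 TPM. Neighbours in this order overlapped in level. The coding transcript of Plxna3 was above Plxna1 in replicate 1 and below it in replicate 2. The lead of Plxna3 in gene TPM was thus not kept in both libraries. Junction reads do not use a length model, and were taken here over the annotated introns of each gene's longest transcript. Their median per junction was 2061 for Plxna3 and 1860 for Plxna1, over both libraries summed. Sema4g had 1678, Plxnb2 1654 and Sema3f 1645 reads per junction on the same measure. Plxna3 and Plxna1 therefore led by junction reads as well, with Plxna3 in front by a small margin whose error is unknown, because the libraries are summed.

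**Figure D3:**
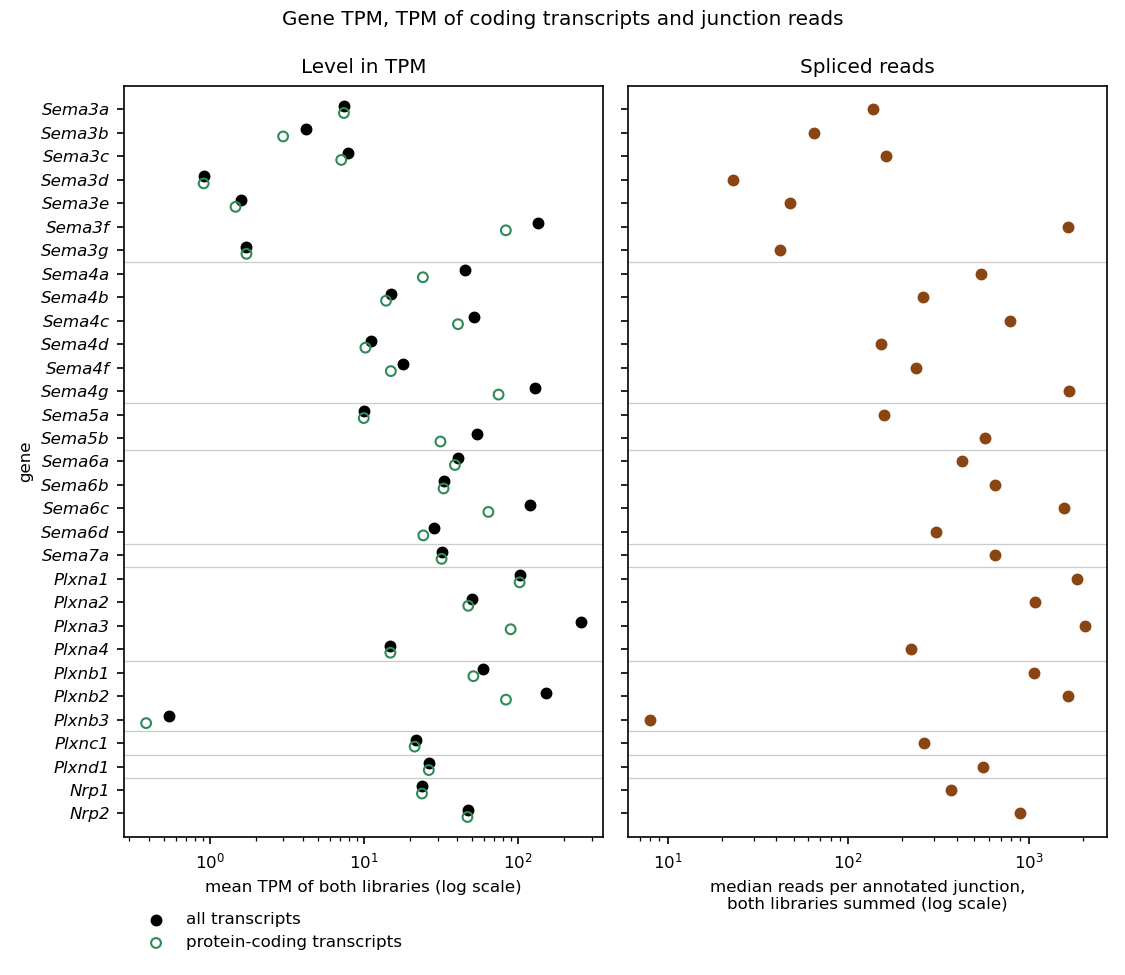
Mean TPM of each member over all transcripts (filled) and over protein-coding transcripts (open) on the left. On the right is the median reads per annotated junction of its longest transcript, over both libraries. All scales are log. The filled and open points of Plxna3, Plxnb2, Sema3f, Sema4g and Sema6c lie apart, and those of Plxna1 and the neuropilins coincide.

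The leading transcript, the form with most TPM of its gene, was the same in both libraries for 23 of 24 members with more than 1 transcript, against 90.7% of 10408 genes. The exception was Nrp2. With shares taken from expected counts it was the same for 22 of 24, and Sema6a joined Nrp2. A leading form without protein-coding annotation in both libraries was found in 1 of 24 members, against 7.22% of 9931 protein-coding genes. This was Sema4g, whose Sema4g-202 is annotated as a target of nonsense-mediated decay, the pathway that removes mRNAs with an early stop. Sema4g-202 had 62.56 TPM (replicate 1) and 45.08 TPM (replicate 2), and the coding Sema4g-201 had 51.56 and 33.79 TPM. Sema4g-202 and Sema4g-201 are of nearly equal length, 4552 and 4548 nt. The other coding form, Sema4g-203, had 35.46 TPM (replicate 1) and 28.59 TPM (replicate 2). Coding forms together thus held most of Sema4g TPM, 58.2% in replicate 1 and 58.0% in replicate 2. The leading form of Sema3b, Sema3b-202, took 65.5% of its gene in replicate 1 and 28.9% in replicate 2, at a gene level below 6 TPM in each.

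A pair of genes was apart if its mean log2 ratio exceeded 1 and its SD in size, with the same sign in both libraries. Of 25 pairs of relatives, or of ligand and receptor, 17 were apart. The share over pairs of all genes was not computed, so the count is not read as a trait of related genes. Plxnb2 exceeded Plxnb3 by a log2 ratio of 8.14 ± 0.22, and Plxnb1 exceeded Plxnb3 by 6.79 ± 0.11. The log2 ratio of Sema3b over Sema3f was -5.05 ± 0.46, that of Sema3a over Sema3f was -4.24 ± 0.57, and that of Plxna3 over Plxna4 was 4.14 ± 0.72. Within class 4, Sema4f over Sema4g gave -2.83 ± 0.37, and within class 5, Sema5a over Sema5b gave -2.44 ± 0.08.

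The difference shrank for pairs with short non-coding forms. Plxna1 over Plxna3 was -1.33 ± 0.46 by gene TPM and 0.19 ± 0.35 by coding transcripts. Plxnb1 over Plxnb2 was -1.36 ± 0.11 by gene TPM and -0.70 ± 0.10 by coding transcripts. These 2 pairs were no longer apart with coding transcripts alone, a measure chosen after the data were seen, which left 15 pairs apart.

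Of the ligand and receptor pairs, Sema3e over Plxnd1 had a log2 ratio of -4.14 ± 0.75 and Sema4d over Plxnb1 of -2.42 ± 0.01, so both receptors were the higher gene. Sema7a over Plxnc1 was 0.55 ± 0.45 and was not apart. A ratio of RNA levels is not a ratio of proteins.

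**Figure D4:**
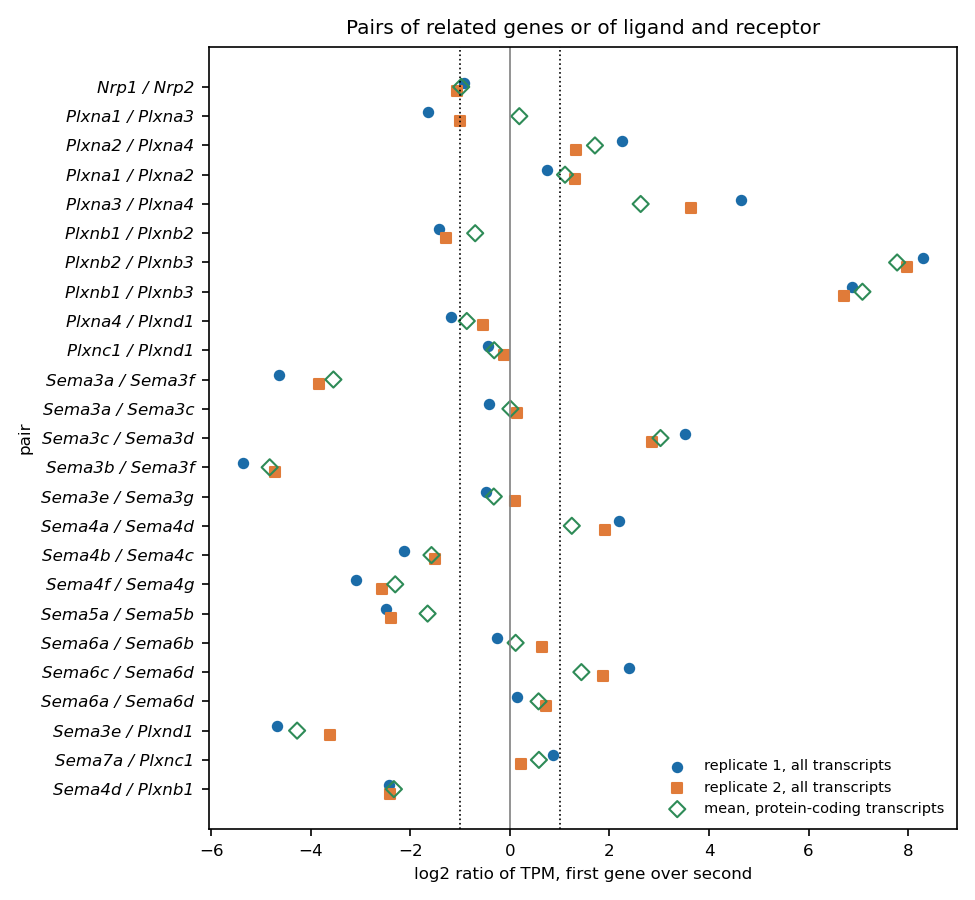
Log2 ratio of the first gene over the second for 25 pairs, from gene TPM in replicate 1 (circles) and replicate 2 (squares) and as the mean from protein-coding transcripts (diamonds), with dotted lines at 2-fold. The pairs with Plxnb3 lie farthest to the right, and the diamonds of Plxna1/Plxna3 and Plxnb1/Plxnb2 fall inside the dotted lines.

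Junction reads showed which optional stretches were used. Of 798 introns annotated for the members on mm9 with Ensembl 65, 681 had 10 or more reads over both libraries, or 85.3%, against 64.2% of 243332 introns of all genes. Cassette exons, which an mRNA includes or skips whole, were counted only where the exon and its junctions are annotated in Ensembl 65. Such exons were measurable at 12 places in 6 members, at sites with 100 or more reads where the minor choice had 10% or more. Unannotated exons, for which Sema4g and Sema5b had junction reads, were left out. Deciding reads are those that enter or leave the exon, averaged, and those that skip it between the same neighbours. Each share below comes with an exact 95% interval over the deciding reads, for counting error only, and its spread between libraries is unknown because the counts are summed.

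In Nrp1 the exon ending with the 21 optional bases shown above kept them in 782 reads and ended before them in 423 reads. The kept form thus took 64.9% of reads, with an interval from 62.1% to 67.6%. The shorter form is not annotated in Ensembl 65, and GENCODE vM21 has no Nrp1 intron of its length. Its intron, chr8:131004869-131011796 on mm9, was among the 5 highest unannotated junctions of the family. The transcript table lists a single Nrp1 transcript, so TPM cannot show this choice.

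Nrp2 is known to end in alternative ways, which change its membrane-spanning and intracellular parts. From the exon before the choice, 865 reads left. Of these, 487 entered the 51-base exon shown above, or 56.3%, and 285 entered a separate last exon, or 32.9%. The last exon of the remaining forms was reached directly by 87 reads, or 10.1% with an interval from 8.1% to 12.3%. The 15 optional bases at the end of the shared exon were kept in 11.7% of the 865 reads.

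Transcript levels and junction reads of Nrp2 differed. Nrp2-204, the form that skips the 51-base exon, held 40.4% of Nrp2 TPM in replicate 1 and 33.5% in replicate 2, beside 10.1% of the junction reads. The forms with the 51-base exon held 38.7% of TPM in replicate 1 and 43.3% in replicate 2, beside 56.3% of the reads. The forms with the separate last exon held 15.9% in replicate 1 and 19.2% in replicate 2, beside 32.9% of the reads. The TPM and the reads come from different genome builds and annotations, and the cause of the difference was not tested. Since Nrp2-204 and Nrp2-202 are the leading forms in replicates 1 and 2, the change of leader rests on these uncertain shares.

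Sema3f included the 93-base exon shown above in 62.9% of deciding reads, with an interval from 60.0% to 65.7%. There were 961 reads into the exon, 472 out of it and 422 that skipped it. The reads at the 2 ends of the exon differed, and 100 further reads left it for an unannotated site. The interval was taken on the average of the ends and does not cover their difference. Sema3f also carried the highest unannotated junction of the family, with 1021 reads, at chr9:107607923-107611748 on mm9. A further junction of Sema3f with 355 reads, at chr9:107587108-107587674 on mm9, shortened an exon by 19 bases, which is not a multiple of 3.

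The other unannotated junctions among the 5 highest were in Plxnb2, with 537 reads at chr15:89001547-89011094, and in Sema4g, with 427 reads at chr19:45065849-45066627, both on mm9. Unannotated junctions took 2.48% of all junction reads within members. In all, 140 of 2662 such junctions had 10 or more reads. Neither share was computed over all genes. Unannotated means absent from the mm9 annotation, so some of these junctions may be known in GENCODE. A Sema6c junction with 234 reads has an intron of 3640 bases, a length that GENCODE lists for this gene. The Plxnb2 and Sema4g junctions and the highest Sema3f junction were not checked in this way.

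Class 6 ligands held 9 of the 12 annotated cassette exons, most of them in Sema6c. The rate over all genes was not computed, and genes with few reads could not enter, so the count is not read as a class trait. In Sema6d, 407 reads left the exon before the choice. Of these, 204 skipped both exons shown above, or 50.1%, 106 entered the 57-base exon, or 26.0%, and 97 went directly to the second exon, or 23.8%. The second exon has ends that make it 168 or 156 bases long, with 88 reads from the longer form to the next exon and 59 from the shorter. The exons were also used together, since 28 reads joined the 57-base exon to the second, an annotated junction. The flanks printed above are identical because each transcript shown holds only 1 of these exons.

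In Sema6c the 96-base exon shown above was included in 20.8% of deciding reads, with an interval from 18.9% to 22.8%, and 1311 reads skipped it. An exon of 64 bases in the Sema6c coding sequence was included in 85.0%, with an interval from 82.0% to 87.8%. Its length is not a multiple of 3, so the forms with and without it are in different reading frames after it. In Sema6a, 661 reads left the exon before an optional pair. Of these, 121 entered an exon of 51 bases, or 18.3%, 335 went directly to an exon of 165 bases, or 50.7%, and 204 skipped both, or 30.9%. Sema4d included a 64-base exon outside its coding sequence in 10.8%.

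Smaller shifts of an exon's end were found in other members. Sema4c kept 3 optional bases in 199 reads and left them out in 298, so the kept form had 40.04%, with an interval from 35.7% to 44.5%. Plxna3 kept 11 optional bases in 1237 reads and left them out in 170, so the kept form had 87.9%. Plxnb1 kept 28 optional bases of an exon in 77.8%, with an interval from 72.2% to 82.7%.

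Partners and mediators of semaphorin signalling were broadly present, with 50 of 52 listed genes at 1 TPM or more in both libraries. Of 21474 protein-coding genes 62.2% reached that level. The median of the list was 31.2 TPM (replicate 1) and 40.2 TPM (replicate 2). Of the list 15 genes were higher in replicate 1 and 37 in replicate 2. Among all genes with a mean of at least 1 TPM the shares were 48.8% (replicate 1) and 51.0% (replicate 2). The genes below 1 TPM were Cd72 and Timd2, immune receptors of class 4 semaphorins, which were named after their values were seen. The split of the list includes both, with Timd2 higher in replicate 1 and Cd72 in replicate 2.

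Among co-receptors and other receptors, L1cam, the adhesion molecule that joins Nrp1 in Sema3a reception, had 116 TPM (replicate 1) and 189 TPM (replicate 2). Cntn2, an adhesion protein of axons, had 91.7 and 70.0 TPM in replicates 1 and 2, and Chl1, an L1 relative, had 48.6 and 72.3 TPM. Of neuropilin ligands outside the family and their receptors, Vegfa had 170 TPM (replicate 1) and 128 TPM (replicate 2), and Flt1 and Vegfc averaged 4.78 ± 1.63 and 4.26 ± 0.49 TPM. Vegfa was the highest gene of this group in both libraries.

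Collapsin response mediator proteins, tubulin-binding proteins that act after Sema3a, had the highest median of the 6 groups of partners, 300.2 TPM (replicate 1) and 331 TPM (replicate 2). Dpysl3 had 633 TPM (replicate 1) and 790 TPM (replicate 2), Crmp1 had 630 and 746 TPM, and Dpysl5 had 300 and 331 TPM. Dpysl2, the best known of them, had 88.1 TPM (replicate 1) and 181 TPM (replicate 2). Its log2 ratio of -1.03 made it the only listed partner beyond 2-fold. Its difference had the same direction as the sums of most marker lists, including hindbrain segments and young neurons. Sums of forebrain, radial glia, intermediate progenitor, cycling cell and microglia genes went the other way. The part of any of these lists in the difference of Dpysl2 was not tested.

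Of enzymes associated with plexins, Cdk5, a kinase that primes collapsin response mediators, had 130 TPM (replicate 1) and 81.7 TPM (replicate 2). Fyn, a kinase bound to A plexins, averaged 94.8 ± 10.2 TPM, and Gipc1, an adaptor of plexins and Nrp1, averaged 74.3 ± 12.3 TPM. Of small GTPases, Rac1 averaged 238 ± 7.0 TPM, Rnd2 138 ± 45.1 TPM and Rhoa 112 ± 13.5 TPM. Of cytoskeletal effectors, the actin-severing Cfl1 averaged 1298 ± 98.8 TPM, its kinase Limk2 134 ± 36.7 TPM and Pak1 78.4 ± 15.04 TPM.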

How the data were processed

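Polyadenylated, rRNA-depleted RNA longer than 200 nt was read as stranded pairs, per the labels. The authors' expected counts, TPM and FPKM per gene and transcript came from alignments to mm10 with GENCODE M4, per the deposited notes, which name no tool. The deposited transcript percent (share of its gene) was recomputed here from TPM. The mm9 RPKM on Ensembl 65, the summed junction read counts and their reproducibility fraction were deposited by the authors, per the file headers.

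Symbols, types and mm10 coordinates came from GENCODE vM21 by Ensembl identifier, and introns from the deposited mm9 exons. Optional stretches were found in vM21 by equal intron and exon lengths. Differences between libraries used log2(TPM + 1), which understates those of low genes. Spike-in rows were left out of totals. At these depths 3 counts are 2.9e-06% of replicate 1 and 3.08e-06% of replicate 2 (counting error only).

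Members and lists were chosen with earlier results of these data known. All 31 members are named, with the 3 highest of each partner group, partners beyond 2-fold and the 5 highest unannotated junctions. Alternatives covered thresholds, posterior mean TPM, FPKM, RPKM, rescaling, edgeR 4.0.16 TMM factors, DESeq2 1.42.0 size factors on rounded expected counts, filters and libraries left out. Python 3.11.15, pandas 2.3.3, scipy 1.17.1 and R 4.3.3 were used. The mm9 transcript values, de novo models and contigs were not used here.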

Additional observations from a re-analysis of the deposited data

How the results depend on the processing

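The counts of members and partners detected, of pairs apart and of members with the same leading transcript, and the share of introns with reads, stayed within 1.5 times of the reported value under every alternative run. The median member level of 28.3 TPM was 33.3 TPM when mitochondrial and spike-in rows were dropped before scaling, 17.5 in FPKM, 3.54 in mm9 RPKM and 24.3 TPM with protein-coding transcripts only, an alternative added after seeing the data, and it lay between 24.3 and 28.6 TPM with either library left out. The count of members 2-fold apart was 1 in the report, 2 with a pseudocount of 0.1, where Sema3e joined Sema6a, and 0 with the mm9 RPKM values, with 0.1 RPKM added; the cause was not tested. The median log2 ratio of the members, replicate 1 over replicate 2, stayed negative under all scalings, between -0.22 and -0.08, and the median of all genes moved by less than 0.1. Of the 17 pairs apart, 16 remained in each library alone: Plxna1/Plxna3 was lost without replicate 1 and Plxna1/Plxna2 without replicate 2, while Nrp1/Nrp2 was gained without replicate 1 and Plxna4/Plxnd1 without replicate 2. With mm9 RPKM, Plxna1/Plxna2 and Plxnb1/Plxnb2 were lost, which left 15. Among 18 pairs apart by the median junction reads of the longest transcripts, 14 were shared with the 17. The leading transcript cannot be compared with a library left out, since it needs both. No paired analysis was possible because both libraries belong to 1 group. Plxnb3, Sema3d and Sema3g had the fewest counts in both libraries, and depth limits them most.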

Other observations

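Several members held further values of interest. Sema6d-202 had 2.01 TPM (replicate 1) and 0.14 TPM (replicate 2), whereas Sema6d-208 had 6.93 and 12.96 TPM. Plxnb2-206, a retained-intron form, had 19.64 TPM (replicate 1) and 8.83 TPM (replicate 2), while the full coding Plxnb2-202 was higher in replicate 2. The share of junction reads on unannotated junctions was highest in Sema3d, with 9.69% of few reads, and was 7.53% in Sema6d, 7.07% in Sema3f and 6.38% in Nrp1. In Sema4g 21 unannotated junctions had 10 or more reads, in Sema6c 22 and in Plxna3 23. Such a count depends on depth, and these genes had 31387, 25503 and 73525 reads on annotated introns. Their shares of reads on unannotated junctions were 4.39%, 5.23% and 2.03%, beside 2.48% over all members. These members were named after their values were seen.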
